A study of Mus musculus with 15 samples.

Results

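The apolipoproteins described here are 10 mouse genes (Apoa1, Apoa2, Apoa4, Apoa5, Apob, Apoc1, Apoc2, Apoc3, Apoe and Apoh), chosen by name and matched by Ensembl ID among the 56953 genes of 15 RNA-seq libraries of primary mouse hepatocytes. All 10 were found, and all 10 passed the filter on low counts. They came from 4 groups. ΔEGFR transgenic mice given carbon tetrachloride (CCl4) gave 4 libraries, ΔEGFR mice given mineral oil 4, wild-type (WT) mice given CCl4 3, and WT mice given mineral oil 4. CCl4 is a solvent toxic to the liver through the radical that cytochromes make of it, and it is usually dissolved in mineral oil. The name ΔEGFR refers to the epidermal growth factor receptor. The promoter and species of the transgene, the dose and duration of CCl4, and the age, strain and sex of the mice are not given in the sources used here.

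Apolipoproteins are the protein coats of the particles that carry fat and cholesterol in blood, and the liver makes most of them. Apob is the structural protein of very low density lipoprotein (VLDL), around which the microsomal triglyceride transfer protein Mttp loads lipid before secretion. Apoa1 and Apoa2 are the main proteins of high density lipoprotein (HDL). Apoc2, Apoc3 and Apoa5 set how fast lipoprotein lipase removes triglyceride, and Apoe is the ligand by which remnant particles are taken up. Apoa1, Apoc3, Apoa4 and Apoa5 lie in one gene cluster on chromosome 9, and Apoe, Apoc1 and Apoc2 in another on chromosome 7.

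Total counts ran from 51.73 to 155.39 megacounts (M) per library, with 6 libraries under 80 M and 9 over. Summed markers of hepatocytes (11 of 12 listed genes, since the symbol Tf matched none) reached 62600 to 109000 TPM (RSEM's length-corrected share of transcripts) in ΔEGFR CCl4, 50200 to 109000 in ΔEGFR mineral oil, 65500 to 113000 in WT CCl4 and 60200 to 102000 in WT mineral oil. No hepatocyte marker was at 0 in all 15 libraries. Macrophage markers (16 genes) were also present, at summed levels of 3710 to 10600 TPM in ΔEGFR CCl4 against 59.9 to 1550 in ΔEGFR mineral oil, and 3360 to 12700 in WT CCl4 against 120 to 2230 in WT mineral oil. WT mineral oil replicate 1 stood apart from its group, with a mean log2 level of 70 markers of other cells of 4.42 against 0.17 to 2.6 in the other 3 libraries. ΔEGFR mineral oil replicate 1 had 5.09% of its TPM in the apolipoproteins, against 7.51% to 9.31% in the other 3 libraries of its group. Its other-cell score was the highest of the group, at 3.21 against 2.46, 2.34 and 0.15 in replicates 2, 3 and 4. On that score replicate 4 lay furthest from the rest. In bulk libraries, fewer cells of a type and less RNA per cell cannot be told apart. The labels name no animals, so the p-values measure only the spread between these libraries, which may be technical.

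The 10 apolipoproteins together held 7.0% ± 1.33 of all TPM (SD, n = 15). Their share was 6.63% ± 0.613 in ΔEGFR CCl4 (n = 4), 7.52% ± 1.78 in ΔEGFR mineral oil (n = 4), 6.59% ± 0.299 in WT CCl4 (n = 3) and 7.17% ± 1.97 in WT mineral oil (n = 4). Their levels spanned a wide range. Apoe was highest at a mean of 29858 TPM over the 15 libraries, above Apoa1 (12826 TPM) in 15 of 15, and below albumin (Alb), the main plasma protein of the liver (50392 TPM). Apoa1 exceeded Apoa2 (10698 TPM) in 14 of 15 libraries, and Apoa2 exceeded Apoc1 (8992 TPM) in 11. Apoc3 (2966 TPM), Apoh (1712 TPM) and Apoa5 (886 TPM) each stood below the gene before them in all 15 libraries. The 4 lowest were not separated beyond their spread: Apoa5 exceeded Apob (837 TPM) in 9 of 15, Apob exceeded Apoa4 (687 TPM) in 10 of 15, and Apoa4 exceeded Apoc2 (585 TPM) in 7 of 15. Apoa4 was also the most variable, with a coefficient of variation of 82.0% over the 15 libraries against 21.5% for Apoe.

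**Figure D1:**
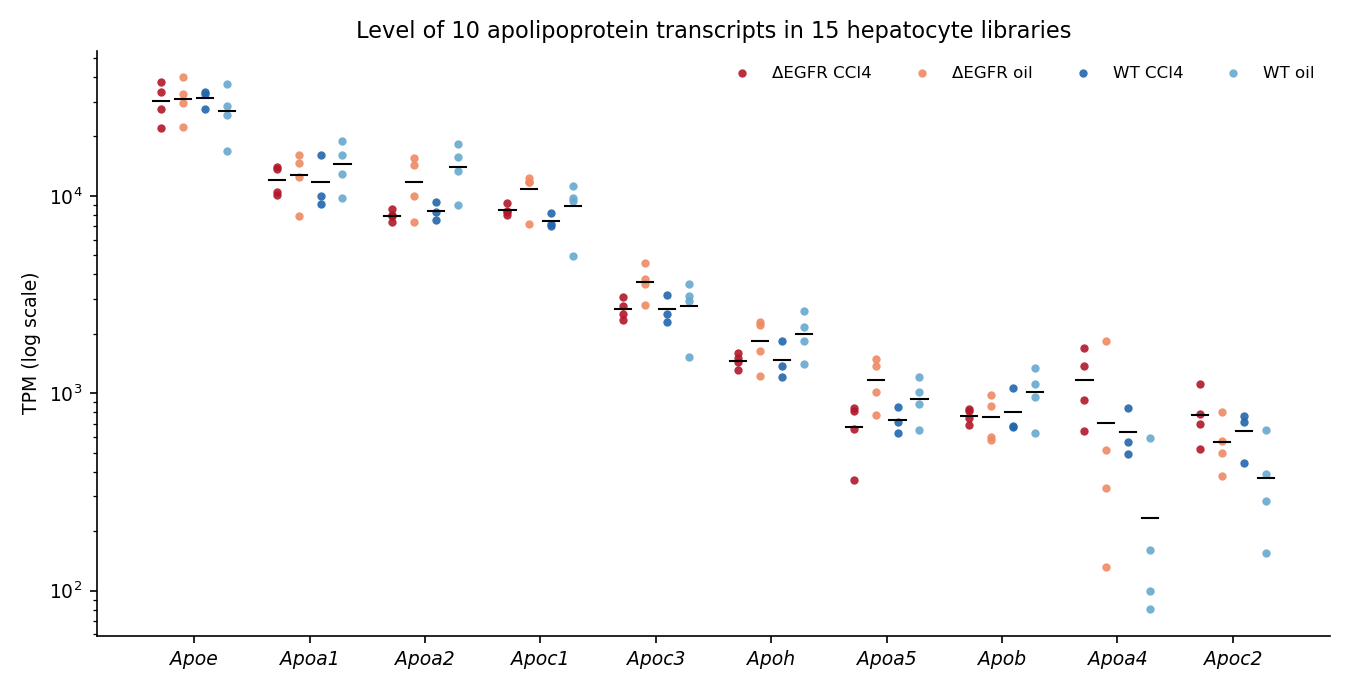
Level of each apolipoprotein gene in TPM (log axis) in each library, 1 point per library, with the 4 groups side by side and a bar at each group mean. Apoe lies highest at a mean of 29858 TPM, and Apoa4 spreads most, between 80.6 and 1847 TPM.

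CCl4 against mineral oil asked what the toxin did to these transcripts, and the fall of Apoa2 was the result seen in both genotypes. In ΔEGFR hepatocytes 2 of the 10 genes fell with CCl4, Apoa5 by 1.3 ± 0.29 on the log2 scale (SE) and Apoa2 by 1.10 ± 0.28, and none rose. In WT hepatocytes 2 of the 10 fell, Apoa2 by 1.27 ± 0.31 and Apob by 1.05 ± 0.32, and none rose. Among all 17975 genes tested, 4.15% were called in ΔEGFR (1.77% higher and 2.38% lower) and 12.5% in WT (5.31% higher and 7.2% lower), by edgeR's quasi-likelihood test on TMM-scaled counts at an adjusted p under 0.05. The median log2 fold change of the 10 genes was −0.73 in ΔEGFR, with 9 of 10 below 0, and −0.77 in WT, with 8 of 10 below 0, against −0.02 and −0.03 over all genes. Abundant genes as a whole lay low too. The 663 genes at least as abundant as Apoc2 had medians of −0.54 in ΔEGFR and −0.63 in WT, and 15.8% and 27.0% of them were called lower. The 11 hepatocyte markers tested had medians of −0.87 in ΔEGFR and −0.76 in WT, with 10 of 11 below 0 in each. Of those 11 markers, 2 were called lower in ΔEGFR and 3 in WT, and none higher.

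These calls depend on how libraries are scaled. The TMM factors were 1.03 to 1.34 in CCl4 libraries and 0.745 to 1.03 in mineral oil libraries. Without these factors the median log2 fold change of all genes moved to 0.44 in ΔEGFR and 0.40 in WT, that of the apolipoproteins was −0.27 and −0.34, and the calls over all genes shifted from 319 higher and 427 lower to 997 higher and 183 lower in ΔEGFR, and from 955 and 1295 to 2326 and 515 in WT. Apoa2 in WT was then the 1 apolipoprotein called (−0.82, adjusted p = 0.0294, edgeR), with 6.56% of all genes called in ΔEGFR and 15.8% in WT. On TPM, which limma tested as log2(TPM + 1), none of the 10 was called in either genotype, while 12.6% of all genes were called in ΔEGFR and 17.9% in WT, and no apolipoprotein's TPM ranges were apart in either comparison (21.9% and 32.0% of all genes).

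**Figure D2:**
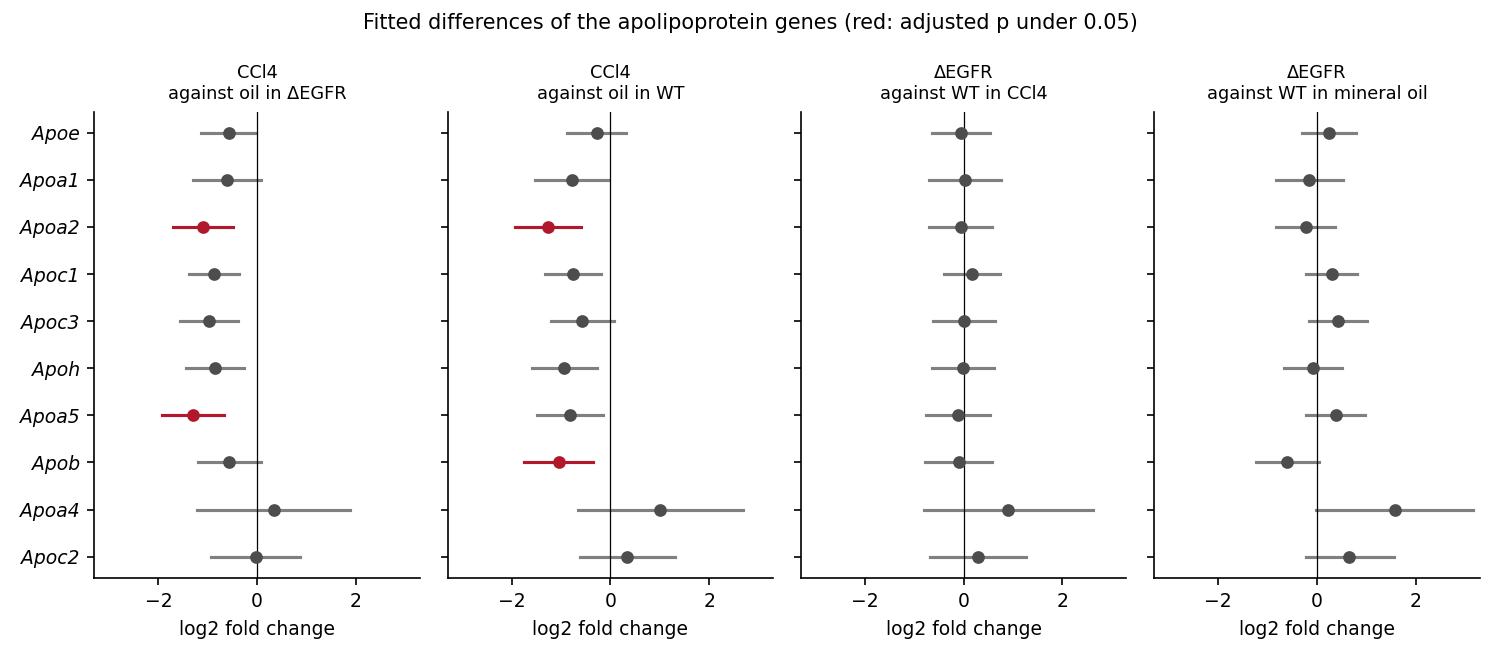
Fitted log2 fold changes (points) with 95% confidence intervals (lines) of the 10 genes in CCl4 against mineral oil for each genotype and in ΔEGFR against WT for each treatment, positive meaning higher in CCl4 or in ΔEGFR. Red marks an adjusted p under 0.05, which Apoa2 and Apoa5 reached in ΔEGFR and Apoa2 and Apob in WT.

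Of the HDL proteins, Apoa2 was called in both genotypes and Apoa1 in neither, and the difference between the 2 genes was not tested. Apoa2, which stabilises HDL, had 1530, 1231, 1662 and 1995 CPM (counts scaled to the library's effective size, TMM) in ΔEGFR CCl4, against 3046, 3609, 2334 and 4755 CPM in ΔEGFR mineral oil. In WT it had 2017, 1593 and 1418 CPM with CCl4 and 2471, 4195, 5397 and 4050 CPM with mineral oil. Every CCl4 library therefore lay below every mineral oil library of its genotype. The fall was 2.14-fold in ΔEGFR (adjusted p = 0.0462, n = 4 and 4, edgeR) and 2.4-fold in WT (adjusted p = 0.0211, n = 3 and 4, edgeR). The ΔEGFR call held only without ΔEGFR CCl4 replicate 4 or ΔEGFR mineral oil replicate 3, and was lost without any of the other 6 libraries (adjusted p up to 0.148). In WT it was lost without CCl4 replicate 2 or 3 or mineral oil replicate 2 or 3 (adjusted p up to 0.0934).

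Apoa1, the principal HDL protein and activator of the cholesterol-esterifying enzyme Lcat, had 4910, 6004, 5588 and 8177 CPM in ΔEGFR CCl4, against 8161, 9390, 7384 and 12673 CPM in ΔEGFR mineral oil. In WT it had 8852, 5371 and 3945 CPM with CCl4 and 6712, 10237, 14204 and 10536 CPM with mineral oil. The groups overlapped in both genotypes. Its log2 fold change was −0.61 ± 0.32 in ΔEGFR (adjusted p = 0.25, edgeR) and −0.78 ± 0.35 in WT (adjusted p = 0.154, edgeR), short of the threshold.

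Setting Apoa2 against Apoa1 within each library removes the scaling between libraries. There were 78.5, 52.5, 76.2 and 62.1 Apoa2 transcripts per 100 of Apoa1 in ΔEGFR CCl4, against 94.2, 97.7, 79.9 and 96.2 in ΔEGFR mineral oil. In WT the ratio was 57.8, 75.1 and 91.2 with CCl4 and 92.4, 103, 95.8 and 97.9 with mineral oil. The CCl4 libraries were all below the mineral oil libraries of their genotype, by a narrow margin for the highest of each. The means were 67.4 ± 12.3 against 92.0 ± 8.18 in ΔEGFR, and 74.7 ± 16.7 against 97.4 ± 4.6 in WT (SD). This ratio was chosen after the values were seen and is given without a test.

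**Figure D3:**
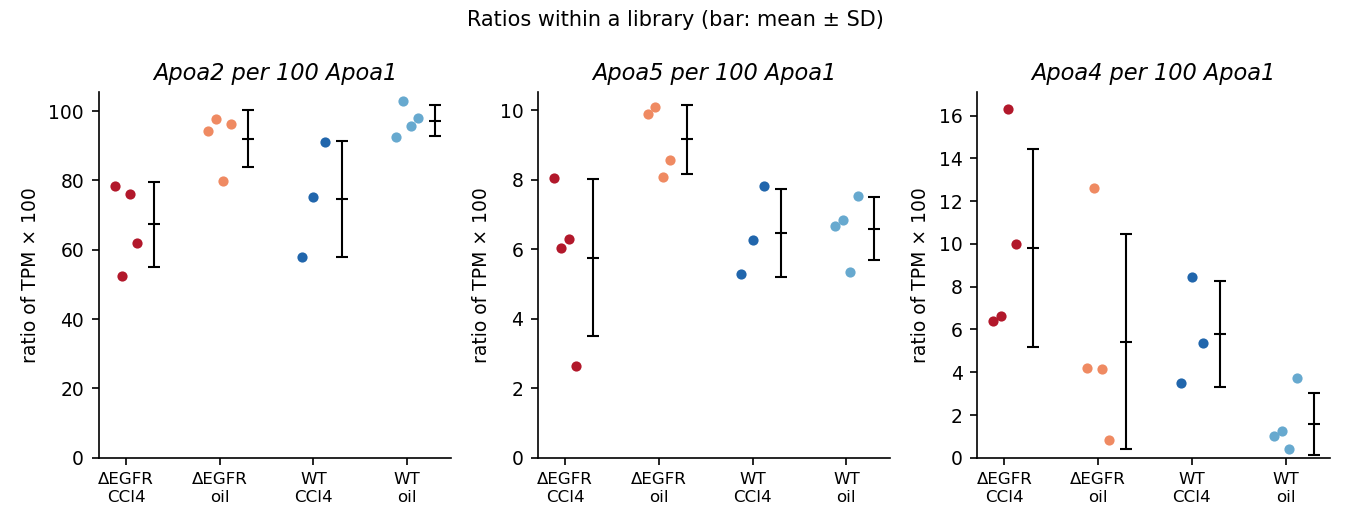
TPM of Apoa2, Apoa5 and Apoa4 per 100 TPM of Apoa1 in each library, by group, with the mean and SD beside the points. Apoa2 per 100 Apoa1 reaches at most 78.5 in ΔEGFR CCl4, against at least 79.9 in ΔEGFR mineral oil, and at most 91.2 in WT CCl4, against at least 92.4 in WT mineral oil, and Apoa4 per 100 Apoa1 runs from 0.423 to 16.3.

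Apob, the backbone of VLDL, was called in WT alone, and the difference between genotypes was not. It had 5281, 3300 and 3613 CPM in WT CCl4, against 6167, 9883, 10688 and 6972 CPM in WT mineral oil, with no overlap (2.07-fold lower, adjusted p = 0.0496, edgeR). In ΔEGFR it had 2579, 3410, 4347 and 4838 CPM with CCl4 and 5119, 6410, 3731 and 7040 CPM with mineral oil, where the groups overlapped (log2 fold change −0.56 ± 0.29, adjusted p = 0.255, edgeR). The interaction of genotype and treatment was 0.50 ± 0.43 (95% interval −0.43 to 1.43, adjusted p = 1, edgeR). The WT call sat at the edge of the threshold and was lost without any 1 of 5 libraries, all but WT CCl4 replicate 1 and WT mineral oil replicate 1 (adjusted p up to 0.181). Apob counted per 100 Apoa1 transcripts was 6.94 ± 0.453 in WT CCl4 and 7.03 ± 1.17 in WT mineral oil, and 6.55 ± 1.38 in ΔEGFR CCl4 and 6.03 ± 1.06 in ΔEGFR mineral oil (SD).

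Of the genes that act on lipoprotein lipase, Apoa5 fell in ΔEGFR. Apoa5, a liver protein that speeds triglyceride removal, had 786, 598, 634 and 361 CPM in ΔEGFR CCl4, against 1400, 1579, 985 and 1896 CPM in ΔEGFR mineral oil (2.46-fold lower, adjusted p = 0.0317, edgeR). In WT it had 820, 587 and 519 CPM with CCl4 and 727, 1186, 1273 and 1323 CPM with mineral oil (−0.81 ± 0.31, adjusted p = 0.102, edgeR). The ΔEGFR groups were apart, and the WT groups overlapped through WT mineral oil replicate 1. Its interaction was −0.49 ± 0.41 (95% interval −1.38 to 0.40, adjusted p = 1, edgeR), so a difference between genotypes was not shown. The ΔEGFR call held without ΔEGFR CCl4 replicate 4 or ΔEGFR mineral oil replicate 3 and was lost without any of the other 6 libraries (adjusted p up to 0.0979). Per 100 Apoa1 transcripts Apoa5 stood at 8.06, 6.04, 6.3 and 2.64 in ΔEGFR CCl4, against 9.89, 10.1, 8.08 and 8.56 in ΔEGFR mineral oil. In WT the same ratio was 6.46 ± 1.27 with CCl4 and 6.60 ± 0.915 with mineral oil (SD).

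Apoc3, an inhibitor of lipoprotein lipase, had 482, 450, 615 and 766 CPM in ΔEGFR CCl4, against 1231, 1226, 944 and 1175 CPM in ΔEGFR mineral oil. In WT it had 731, 573 and 421 CPM with CCl4 and 447, 1048, 927 and 982 CPM with mineral oil. The ΔEGFR groups were apart and the WT groups were not. Neither passed the test (−0.98 ± 0.27, adjusted p = 0.0596 in ΔEGFR; −0.57 ± 0.30, adjusted p = 0.226 in WT, edgeR). Apoc1, a small protein of VLDL and HDL, had 1437, 1124, 1375 and 1504 CPM in ΔEGFR CCl4, against 2380, 2493, 2213 and 2891 CPM in ΔEGFR mineral oil. In WT its values were 1430, 1205 and 988 CPM with CCl4 and 1100, 2382, 2308 and 2328 CPM with mineral oil. It also missed the threshold, at −0.87 ± 0.24 in ΔEGFR (adjusted p = 0.0585, edgeR) and −0.75 ± 0.26 in WT (adjusted p = 0.079, edgeR).

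Apoc2, the cofactor that lipoprotein lipase needs, did not share this direction. It had 138, 162, 227 and 359 CPM in ΔEGFR CCl4, against 282, 279, 184 and 162 CPM in ΔEGFR mineral oil, and 229, 210 and 104 CPM in WT CCl4, against 58, 168, 116 and 231 CPM in WT mineral oil. The groups overlapped in both genotypes, with log2 fold changes of −0.03 ± 0.41 in ΔEGFR (adjusted p = 0.967, edgeR) and 0.34 ± 0.44 in WT (adjusted p = 0.654, edgeR). The sign in ΔEGFR turned under several scalings. Its values are uncertain, since a gene on the same strand, Gm44805, overlaps it (15.9 to 79.3 TPM) and the estimated counts could split shared reads between them.

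**Figure D4:**
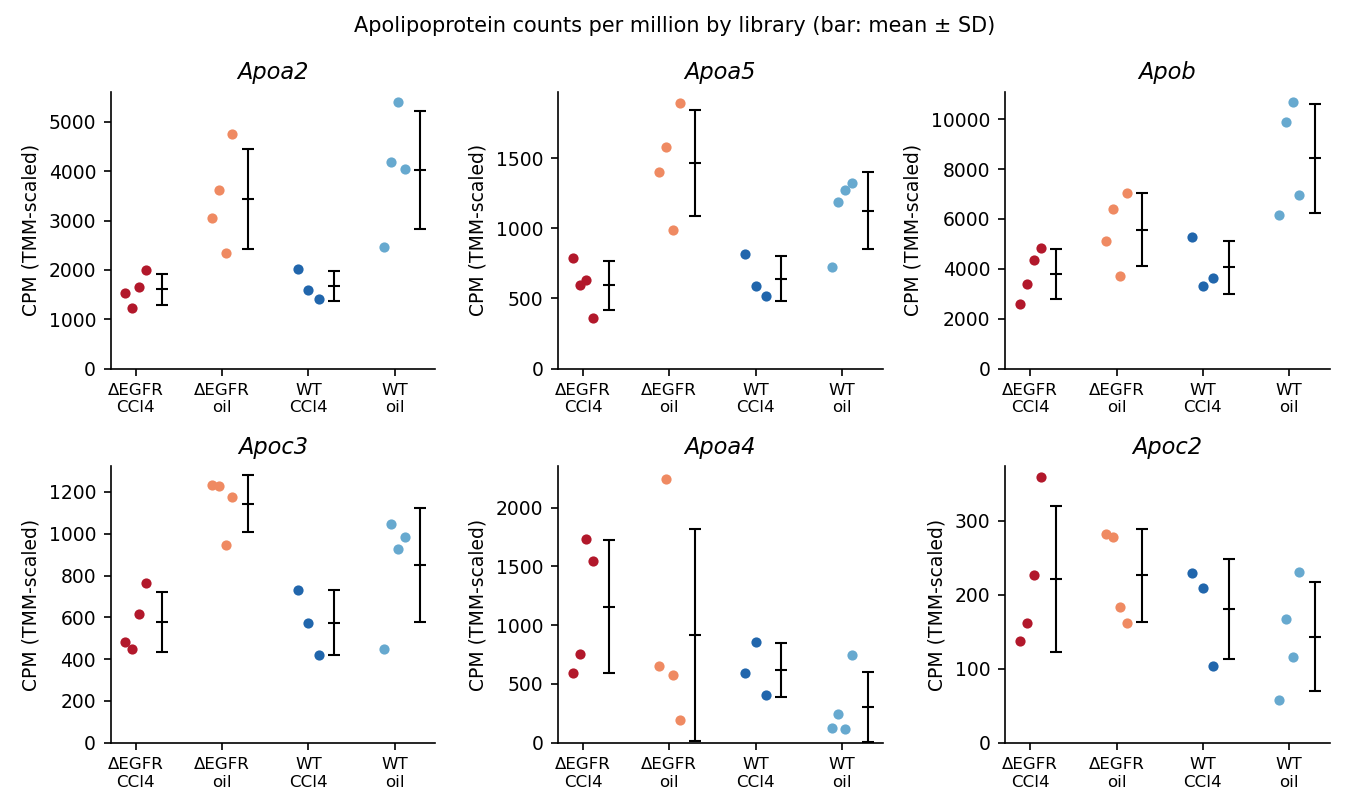
TMM-scaled CPM of 6 apolipoprotein genes in each library by group, with mean and SD beside the points. CCl4 libraries lie below all mineral oil libraries of their genotype for Apoa2 (both genotypes), Apoa5 and Apoc3 (ΔEGFR) and Apob (WT), while Apoa4 and Apoc2 overlap throughout.

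Apoe, the receptor ligand of remnant lipoproteins that macrophages make as well as hepatocytes, had 15537, 14832, 13661 and 12108 CPM in ΔEGFR CCl4, against 21313, 23336, 17736 and 21419 CPM in ΔEGFR mineral oil. In WT it had 14187, 16393 and 13305 CPM with CCl4 and 10446, 18754, 19419 and 22254 CPM with mineral oil. The groups were apart in ΔEGFR alone, and no call was made (−0.58 ± 0.26, adjusted p = 0.183 in ΔEGFR; −0.28 ± 0.28, adjusted p = 0.543 in WT, edgeR). The WT direction turned to 0.18 without scaling factors and 0.27 on TPM. Apoh, or beta-2-glycoprotein I, which binds anionic phospholipid, had 757, 727, 957 and 1120 CPM in ΔEGFR CCl4, against 1505, 1737, 1141 and 2072 CPM in ΔEGFR mineral oil. In WT it had 1210, 869 and 617 CPM with CCl4 and 1147, 1722, 2290 and 1687 CPM with mineral oil. Its log2 fold changes were −0.86 ± 0.27 in ΔEGFR (adjusted p = 0.0887, edgeR) and −0.93 ± 0.30 in WT (adjusted p = 0.06, edgeR).

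By range alone, 6 of 10 genes had CCl4 libraries apart from mineral oil libraries in ΔEGFR (Apoa2, Apoa5, Apoc1, Apoc3, Apoe and Apoh) and 2 of 10 in WT (Apoa2 and Apob), against 21.6% and 24.1% of all genes tested. All of these were lower with CCl4, a direction that 9.32% of all genes tested showed in ΔEGFR and 11.9% in WT. On TPM the same count was 0 of 10 in both genotypes, against 21.9% of all genes tested in ΔEGFR and 32.0% in WT.

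Apoa4, a protein of HDL and of newly secreted triglyceride-rich particles, had the highest coefficient of variation of the 10 genes by CPM within 3 of the 4 groups. In WT CCl4, Apoa1 (41.7%) and Apoc2 (37.3%) exceeded its 37.0%. It had 594, 756, 1734 and 1550 CPM in ΔEGFR CCl4, 649, 2241, 579 and 196 CPM in ΔEGFR mineral oil, 593, 861 and 405 CPM in WT CCl4, and 129, 241, 114 and 744 CPM in WT mineral oil. All pairs of groups overlapped. Its log2 fold change with CCl4 was 0.34 ± 0.72 in ΔEGFR (adjusted p = 0.802, edgeR) and 1.01 ± 0.77 in WT (95% interval −0.65 to 2.68, adjusted p = 0.415, edgeR). The ΔEGFR value turned to −0.02 without ΔEGFR mineral oil replicate 4. A gene on the opposite strand, Gm10680, overlaps Apoa4 and was listed at 1.59 to 43.8 TPM. The kit marks strand, but whether the counting used it is not stated, so their reads may not be told apart.

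The stretches of 250 bases before the RefSeq gene start (mouse build GRCm38.p6) are shown for the 3 genes that fell and for Apoa4, which did not follow them. Capitals mark matches to 2 motifs, searched on both strands and at any position in the window. TATAAA has the letters of the core promoter box. CAAAGNNCA is a short form of the site that the liver factor HNF4A binds. The 2 motifs do not overlap in these windows.
Apoa2, chr1:171224804-171225053, plus strand: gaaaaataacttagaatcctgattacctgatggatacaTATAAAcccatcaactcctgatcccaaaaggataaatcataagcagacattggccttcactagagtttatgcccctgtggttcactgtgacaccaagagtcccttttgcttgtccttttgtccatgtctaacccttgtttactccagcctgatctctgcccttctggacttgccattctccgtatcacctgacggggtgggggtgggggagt
Apoa5, chr9:46268358-46268607, plus strand: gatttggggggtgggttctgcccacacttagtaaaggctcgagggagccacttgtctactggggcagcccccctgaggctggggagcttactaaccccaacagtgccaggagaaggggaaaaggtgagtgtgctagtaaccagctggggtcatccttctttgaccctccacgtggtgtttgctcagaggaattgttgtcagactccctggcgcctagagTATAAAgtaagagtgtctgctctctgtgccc
Apob, chr12:7977427-7977676, plus strand: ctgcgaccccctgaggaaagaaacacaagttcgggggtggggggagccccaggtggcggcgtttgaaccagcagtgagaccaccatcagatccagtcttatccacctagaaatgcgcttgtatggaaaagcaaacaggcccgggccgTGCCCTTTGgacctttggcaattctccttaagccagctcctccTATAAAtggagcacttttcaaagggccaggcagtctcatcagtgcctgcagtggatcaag
Apoa4, chr9:46240594-46240843, plus strand: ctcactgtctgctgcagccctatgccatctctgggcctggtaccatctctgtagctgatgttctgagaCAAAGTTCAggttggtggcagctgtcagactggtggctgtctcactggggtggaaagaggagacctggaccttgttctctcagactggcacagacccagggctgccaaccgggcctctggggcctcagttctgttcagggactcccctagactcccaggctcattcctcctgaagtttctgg
TATAAA lay 31 to 26 bases before the start of Apoa5, 60 to 55 before that of Apob and 212 to 207 before that of Apoa2. CAAAGNNCA lay 182 to 174 bases before Apoa4 and, on the opposite strand, 103 to 95 before Apob. Of the 8 apolipoprotein genes matched in the promoter table, 3 held TATAAA (Apoa2, Apoa5 and Apob) and 3 held CAAAGNNCA (Apoa4, Apob and Apoh), against 13.0% and 5.47% of 27025 promoter windows. Apoc1 and Apoc3 are named only. A match describes letters in the window and not a bound site.

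ΔEGFR against WT asked whether the transgene alters these transcripts under each treatment. None of the 10 genes was called in CCl4, in mineral oil, or in the interaction of genotype and treatment, where edgeR called 0.0% of all genes each time and no CPM ranges of the 10 were apart (5.06% of all genes in CCl4 and 2.73% in mineral oil). At an unadjusted p under 0.05 there were also 0 of the 10 in each, where 2.29% of all genes passed in CCl4, 6.66% in mineral oil and 3.16% in the interaction, so that few of any 10 genes would pass. DESeq2 called 0 of the 10. In CCl4, the other 9 genes besides Apoa4 differed by −0.11 to 0.29 on the log2 scale, with 95% intervals within −0.78 to 1.26. Apoa4 differed by 0.90 ± 0.79 (−0.81 to 2.62, adjusted p = 1, edgeR). In mineral oil the differences of those 9 ran from −0.60 to 0.66, with intervals within −1.23 to 1.56. Apoa4 gave the largest value, 1.58 ± 0.74 (−0.01 to 3.17, adjusted p = 0.713, edgeR), and Apob the lowest (−0.60 ± 0.29, adjusted p = 0.713, edgeR). The interaction ran from −0.67 for Apoa4 to 0.50 for Apob. The intervals leave room for differences of more than 2-fold in several genes.

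WT mineral oil replicate 1 was lowest of its group in 9 of the 10 genes by CPM, all but Apoa4. Without ΔEGFR mineral oil replicate 1, none of the 10 was called in ΔEGFR, where edgeR called 1.61% of all genes, with Apoa5 at −1.35 (adjusted p = 0.0579, edgeR) and Apoa2 at −1.18 (adjusted p = 0.0716, edgeR). Without WT mineral oil replicate 1, 6 of the 10 were called lower in WT CCl4, namely Apoa2 (−1.44), Apob (−1.18), Apoh (−1.08), Apoa5 (−0.97), Apoc1 (−0.95) and Apoc3 (−0.78), where edgeR called 28.7% of all genes. Markers of other cells did not all move alike with CCl4. In ΔEGFR the median log2 fold change of macrophage markers was 2.49, of stellate 0.96, endothelial 0.68 and cholangiocyte 1.27. That of T and NK cell markers was 0.58, of B cell 1.97 and of neutrophil 0.46. In WT the same medians were 2.2, 1.69, −0.03, 0.03, −1.5, 0.21 and −1.41, in that order. The mean log2 level of 70 markers of these other cells was 3.59 to 4.38 in ΔEGFR CCl4 and 0.15 to 3.21 in ΔEGFR mineral oil. In WT this score was 3.71 to 3.92 with CCl4 and 0.17 to 4.42 with mineral oil. It thus went largely with treatment, so a fit that holds it cannot tell other-cell content from CCl4. With the score as a term in the fit, none of the 10 genes was called in either genotype. Apoa2 was then at −0.64 in ΔEGFR (adjusted p = 0.31, edgeR) and −0.77 in WT (adjusted p = 0.11, edgeR), Apoa5 at −0.99 in ΔEGFR (adjusted p = 0.204, edgeR) and Apob at −0.67 in WT (adjusted p = 0.243, edgeR). That fit called 0.189% of all genes in ΔEGFR and 4.01% in WT.

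**Figure D5:**
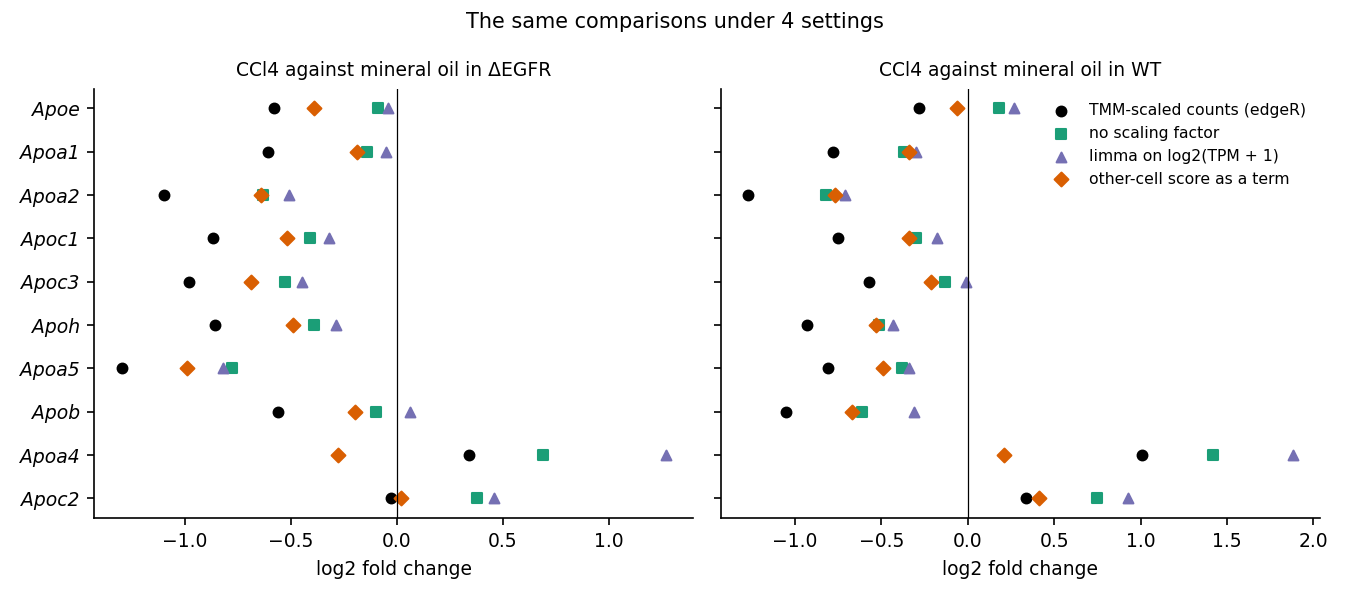
Log2 fold change of each gene, CCl4 against mineral oil, in ΔEGFR and in WT under 4 settings: TMM-scaled counts, counts with no scaling factor, limma on log2(TPM + 1), and TMM-scaled counts with the other-cell score as a term. Apoa2 stays below 0 in all 4 in both genotypes, between −1.10 and −0.51 in ΔEGFR and between −1.27 and −0.71 in WT, while Apoe in WT and Apoa4, Apob and Apoc2 in ΔEGFR lie on either side of 0.

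Depth also differed between groups. In ΔEGFR, 3 of the 4 CCl4 libraries and all 4 mineral oil libraries had totals over 80 M. Among these Apoa5 was at −1.31 (adjusted p = 0.106, edgeR) and Apoa2 at −1.10 (adjusted p = 0.126, edgeR). In WT, Apoa2 was at −1.36 (adjusted p = 0.0655, edgeR) among the 2 CCl4 and 3 mineral oil libraries under 80 M, and Apob at −1.12 (adjusted p = 0.121, edgeR). Over 80 M there was 1 WT library of each treatment, and Apoa2 stood at −0.71 and Apob at −0.68 between them, given without a test. No ΔEGFR mineral oil library lay under 80 M, so that range gives no ΔEGFR value.

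Across the 15 libraries the members fell into those that varied together and those that did not, described here by Pearson's r of log2 CPM with no test, since libraries share group, depth and other-cell content. Apoa2 and Apoh (r = 0.97), Apoa1 and Apoh (0.96), and Apoc1 and Apoc3 (0.95) were most alike, and remained so after each group's mean was subtracted (0.94, 0.94 and 0.91). Apoa4 went with Apoc2 (0.77, and 0.74 within groups) and not with Apob (−0.47, and 0.05 within groups). Within groups Apoc2 was more like Apoc3 (0.89, and 0.54 over the 15 libraries) than like Apoa4. With the other genes of its cluster on chromosome 9, the r of Apoa4 was −0.33 for Apoa1 (0.01 within groups), −0.30 for Apoa5 (−0.04) and 0.04 for Apoc3 (0.43). Other pairs within a cluster varied. Apoa1 and Apoc3 on chromosome 9 stood at 0.80 (0.77 within groups), and Apoc1 and Apoe on chromosome 7 at 0.86 (0.76). Apoc2 on chromosome 7 was less like Apoc1 (0.36, and 0.69 within groups) and Apoe (0.39, and 0.54). Apoa2 and Apoh, the most alike pair, lie on chromosomes 1 and 11.

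The genes most like each member over 15 libraries were sought among other genes with a symbol and a mean log2 CPM of at least 2. For Apoa4 they were Gm10680 (r = 0.977), which overlaps Apoa4 and may share its reads, and Ptgr1 (0.927). For Apoa1 they were Cyp2d26 (0.975) and Hgfac (0.969), and for Apoa2 9330121J05Rik and Acadsb (0.982 each). For Apob they were F5, coagulation factor V, (0.962) and Cmah (0.938), and for Apoa5 Xpa (0.964) and Apeh (0.934). Klhdc3 (0.974) and Zfp574 (0.97) were most like Apoc1, Perp (0.923) and Txndc12 (0.914) most like Apoc2, and Pex5 (0.965) and Msra (0.959) most like Apoc3. Bcap31 and Ubox5 (0.937 each) were most like Apoe, and AI182371 and 1300017J02Rik (0.976 each) most like Apoh.

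Of 67 other genes of lipoprotein metabolism, 66 were tested (Apod did not pass the filter). In ΔEGFR 2 were higher and 1 lower with CCl4 (4.55% of the list, against 4.15% of all genes), and in WT 4 were higher and 7 lower (16.7%, against 12.5% of all genes). These shares are near those of all genes, and the genes below are given as single calls. Their median log2 fold changes were −0.37 and −0.41. Apobec1, the deaminase that edits Apob mRNA, rose in both genotypes. It averaged 37.6 ± 9.56 CPM in ΔEGFR CCl4 against 13.1 ± 3.67 in ΔEGFR mineral oil (log2 fold change 1.52 ± 0.35, adjusted p = 0.0367, edgeR), and 49.2 ± 20.0 CPM in WT CCl4 against 21.0 ± 9.59 in WT mineral oil (1.23 ± 0.37, adjusted p = 0.0454, edgeR). Hepatic lipase, Lipc, fell in both, with 52.6 ± 11.2 against 126 ± 31.7 CPM in ΔEGFR (−1.26 ± 0.29, adjusted p = 0.0367, edgeR) and 55.3 ± 21.2 against 125 ± 39.8 CPM in WT (−1.18 ± 0.32, adjusted p = 0.0315, edgeR). The VLDL receptor Vldlr rose in both from very low levels, with 1.64 ± 1.35 against 0.208 ± 0.181 CPM in ΔEGFR (adjusted p = 0.0406, edgeR) and 0.92 ± 0.42 against 0.114 ± 0.0245 CPM in WT (adjusted p = 0.0255, edgeR).

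Other calls were made in WT. Lpl, the lipase of peripheral tissue (3.60 ± 0.87, adjusted p = 0.0202, edgeR), and Cd36, a fatty acid and lipoprotein receptor (3.03 ± 0.76, adjusted p = 0.0235, edgeR), rose, and macrophages make both. Of the 16 macrophage markers, 2 were called higher in ΔEGFR and 5 in WT, and all 16 lay above 0 in both. Among all genes tested, 1.77% were called higher in ΔEGFR and 5.31% in WT. With the other-cell score as a term, which went largely with treatment, none of the 66 genes was called in either genotype. That fit called 0.189% of all genes in ΔEGFR and 4.01% in WT, so few of any 66 genes would be called. Whether macrophages account for the rises of Lpl and Cd36, or for those of Apobec1 and Vldlr, was not tested. Saa4, an HDL-bound serum amyloid (−2.64 ± 0.56), and Mia2, which carries cargo out of the endoplasmic reticulum (−0.70 ± 0.20), fell (edgeR adjusted p = 0.0121 and 0.0366). Among transcription factors, Hnf4a fell by 0.98 ± 0.28, Ppara, the fatty acid sensor, by 1.25 ± 0.38, and Nr1h4, the bile acid receptor, by 1.11 ± 0.32 (edgeR adjusted p = 0.0403, 0.0479 and 0.0374). In ΔEGFR, Hnf4a stood at 538 ± 75.2 CPM with CCl4 and 979 ± 81.2 CPM with mineral oil (−0.87 ± 0.26, adjusted p = 0.0735, edgeR).

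Genes that did not pass in either genotype included Mttp, at −0.38 ± 0.23 in ΔEGFR (adjusted p = 0.32, edgeR) and −0.35 ± 0.25 in WT (adjusted p = 0.382, edgeR), signs that turned without scaling factors. Lcat stood at −0.87 ± 0.27 in ΔEGFR (adjusted p = 0.0774, edgeR) and −0.86 ± 0.29 in WT (adjusted p = 0.068, edgeR). The HDL receptor Scarb1 also missed the threshold, at −0.47 ± 0.27 in ΔEGFR (adjusted p = 0.297, edgeR) and −0.25 ± 0.30 in WT (adjusted p = 0.613, edgeR). No gene of this list was called by genotype or in the interaction. Each call named here was lost on leaving out at least 1 library. In ΔEGFR the calls of Apobec1 and Lipc held only without CCl4 replicate 4 or mineral oil replicate 3, and that of Vldlr only without CCl4 replicate 4. In WT the call of Saa4 was lost without CCl4 replicate 3 alone, that of Lpl without CCl4 replicate 3 or mineral oil replicate 3, and that of Cd36 without CCl4 replicate 2 or 3 or mineral oil replicate 2. Those of Apobec1, Hnf4a, Lipc and Vldlr held only without CCl4 replicate 1 or mineral oil replicate 1, and those of Mia2, Nr1h4 and Ppara only without mineral oil replicate 1.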

How the data were processed

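Libraries were prepared with a stranded KAPA mRNA kit, per the labels' protocols. The submitters' processing notes name STAR 2.7.8a, RSEM 1.3.0 and the build GRCm39. Neither the annotation nor whether counting used strand is given in the sources used here. The deposited files hold RSEM estimated counts (expected counts) and TPM per gene, both made by the authors. These counts, rounded to whole numbers, went into edgeR 4.0.16 (R 4.3.3) (filterByExpr, minimum count 10 and total 15; TMM; robust quasi-likelihood; 1 mean for each of 4 groups; Benjamini-Hochberg over 17975 genes; call at an adjusted p under 0.05). Standard errors come from the F statistic. TPM served for levels between genes, TMM-scaled CPM for comparisons. Gene names were joined by Ensembl ID (91.4% named). Promoter windows came from a RefSeq table of GRCm38.p6, another build, and no other coordinates were used. The steps were tested on simulated data. Replicates were numbered in order of deposit.

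The text names all 10 members, each called gene of the pathway list, a few set genes of it whether called or not, Alb, and the 2 most alike genes per member. Members and lists were chosen with earlier results of these data known. Alternatives were DESeq2 1.42.0, RLE, upper-quartile and no scaling, no filter, a filter of 1 CPM in 3 libraries, fits of only the groups compared, limma 3.58.1 on log2(TPM + 1), terms for depth and other-cell markers, and each library left out. Fits within depth ranges were added after the data were seen. Counts come from reads without molecular identifiers, which are not independent molecules. Standard errors and p-values come from the spread between libraries. Mouse coordinates in the files' build were not used here. Some genes of the lipoprotein lists are counted but not reported here by name.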

Additional observations from a re-analysis of the deposited data

Results flagged for a closer look

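A test for a single value far from the rest of its group (Dixon's, at the 95% level) was run on TPM in 30 groups of 4 libraries and marked 2, and chance marks about 1 in 20 such groups. WT mineral oil replicate 4 had the highest Apoa4 level of its group, 595.5 TPM, against 80.6 to 160 TPM in the other 3 libraries. ΔEGFR mineral oil replicate 1 had the lowest Apoc1 level of its group, 7210 TPM, against 11777 to 12352 TPM in the other 3. That library had the highest other-cell score of its group (3.21) and the lowest share of TPM in the 10 genes (5.09%), while its summed macrophage markers were 695 TPM, within the 59.9 to 1550 TPM of its group. Its counts were also the furthest from those of its group, with a mean chi-square per gene of 1400 to 2000 against each of the other 3 libraries, which gave 551 to 770 among themselves. Their part in the Apoc1 value was not tested.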

How the results depend on the processing

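No paired analysis was possible because the labels give no replicate numbers that groups share. The count of apolipoprotein genes called for CCl4 (2 in each genotype) became 5 in ΔEGFR and 4 in WT with DESeq2, 1 and 1 with upper-quartile scaling, 0 and 1 with no scaling factor, 1 and 1 with no low-count filter, 4 and 0 in fits of only the groups compared, and 0 and 0 on TPM and with the other-cell score. It became 5 in ΔEGFR with depth range as a term, 0 and 0 among libraries over 80 M, and 0 in WT under it. In WT the range over 80 M sets 1 library against 1, assumed to vary like the other groups, so its counts of 0 say nothing about stability. Leaving out 1 library gave 0 to 3 in ΔEGFR and 0 to 6 in WT. Calls over all genes (746 and 2250) were 2398 and 3611 with DESeq2, 470 and 1457 unfiltered, 1286 and 533 in groups-only fits, 34 and 720 with the other-cell score, 96 and 0 over 80 M, and 0 in WT under it. In ΔEGFR they were also 1180 unscaled, 2271 on TPM and 1643 with the depth term. Left-out libraries gave 75 to 972 and 575 to 5111. Called lipoprotein pathway genes (3 and 11) were 14 and 21 with DESeq2, 12 and 1 in groups-only fits, 0 and 0 with the other-cell score, 1 and 0 over 80 M, 0 in WT under it, and 5 in WT unfiltered. In ΔEGFR they were 5 unscaled, 6 on TPM and 12 with the depth term. Left-out libraries gave 0 to 7 and 0 to 32. For genotype, DESeq2 called 9 genes in mineral oil, 1 in CCl4 and 2 for the interaction, limma on TPM 1 for the interaction, and libraries over 80 M 365 genes in mineral oil, 1 of them in the pathway list. Those 365 rest on a single WT library, mineral oil replicate 1, which stood apart from its group. None of these fits called an apolipoprotein gene by genotype, and left-out libraries gave 0 to 0 in each.

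Signs turned in 22 of the settings run on single genes, none of them for a gene called in the same comparison. In WT these were Apoe (0.18 unscaled, 0.27 on TPM, 0.44 over 80 M), Apoc3 (0.0 over 80 M) and Mttp (0.07 unscaled, 0.15 on TPM). In ΔEGFR they were Apoa4 (−0.28 with the other-cell score, −0.02 without mineral oil replicate 4, and up to 1.32 in other left-out fits), Apob (0.06 on TPM), Mttp (0.08 unscaled, 0.16 on TPM) and Apoc2 (0.01 with DESeq2, RLE, upper-quartile scaling or no filter, 0.38 unscaled, 0.46 on TPM, 0.02 with the other-cell score, and 0.07 to 0.14 in 4 left-out fits, whose full range was −0.32 to 0.14). The cause was not tested. Apoa2 stayed below 0 in all 19 alternatives of each genotype, called in 7 for ΔEGFR and 10 for WT. Apoa5 in ΔEGFR was called in 9 of 19 and Apob in WT in 6 of 19. The biological coefficient of variation common to all genes was 50.9%, and the lowest count of a member in any library was 5714 (Apoa4, WT mineral oil replicate 3).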
